A study of Drosophila melanogaster with 4 samples.

Results

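The 10 antimicrobial peptide genes described here are *AttA*, *AttB*, *AttC* and *AttD* (attacins), *DptA* and *DptB* (diptericins), *CecA1* (a cecropin), *Mtk* (metchnikowin), *Def* (defensin) and *Drs* (drosomycin). They were chosen by gene symbol, and all 10 had a row among the 23932 annotated features counted. Antimicrobial peptides are small secreted proteins that kill bacteria and fungi. In *Drosophila*, the fat body, an organ with liver-like functions, makes most of them after infection. Barrier epithelia make them locally, and glia of the nervous system can also express some. Their genes are switched on mainly through the Imd pathway, which responds to peptidoglycan of Gram-negative bacteria and ends in the NF-kappaB factor Relish, and through the Toll pathway, which responds to fungi and Gram-positive bacteria and ends in the NF-kappaB factors Dif and Dorsal. Attacins, diptericins and cecropins are known mainly as Imd outputs, *Drs* as a Toll output, and *Mtk* and *Def* respond to both.

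In the study, brains came from wandering larvae of the third instar (WL3) in which *insc*-GAL4, a driver active throughout neuroblast lineages, expressed a hairpin against *white* (the control, an eye color gene) or against *orb2*, which encodes a CPEB family RNA-binding protein. All 4 libraries therefore carried the same driver and an RNAi hairpin, with 2 libraries per genotype, each a pool of 60 brains dissected in batches. The groups differ in *orb2* RNAi against *white* RNAi, no infection was part of the design, and whether the replicate pools came from separate crosses is not given, so p-values measure only the spread between these pools.

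The libraries held 34.61 to 75.41 M counts. Levels are given as CPM, counts scaled by TMM to a common library total, and pools 1 and 2 of each label are given in that order. The target *orb2* went against its label: 17.1 and 15.3 CPM were measured under *white* RNAi, and 105.3 and 53.6 CPM under *orb2* RNAi. Every direction below therefore follows the labels and not a measured knockdown, and the libraries are called *white*-labelled and *orb2*-labelled pools. All 28 listed markers of neurons, glia and neuroblasts were at 9.67 CPM or above in every library, which fits the label. Markers of other tissues were present too. The 10 fat body markers (*Fbp1* and *Lsp1beta* the most abundant) summed to 5249 and 1029 CPM in the *white*-labelled pools and to 1260 and 3362 CPM in the *orb2*-labelled pools. The 12 hemocyte markers (*Col4a1* and *Pxn* the most abundant) summed to 793.1 and 999.2 CPM and to 950.1 and 989.1 CPM in the same order, and all 12 were counted in every library. Of the fat body markers, *Yp1* was at 0 in *white*-labelled pool 2. The 13 markers of barrier epithelia (gut, trachea and epidermis) summed to 304.2 and 342.6 CPM and to 460.4 and 727.3 CPM, both *orb2*-labelled pools above both *white*-labelled ones. Gene by gene, this held for 3 of the 11 that were tested, and the reverse for 1. Among all tested features these shares were 18.5% and 11.7%, respectively. The most abundant of the 13 by mean CPM were *verm*, a tracheal and cuticle gene, and *Peritrophin-15a*, a gut gene. *Peritrophin-15a* was at 0 and 20.6 CPM in the *white*-labelled pools and at 0.158 and 322.5 CPM in the *orb2*-labelled pools. Of the 13, 7 were at 0 in at least 1 library, most of them gut enzymes. The part of these tissues in the levels of the peptide genes was not tested. In these bulk samples a smaller number of expressing cells and less RNA per cell cannot be told apart.

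All 10 antimicrobial peptide genes were low, with means over the 4 libraries of 0.130 to 6.81 CPM. Of the 10, 6 had 0 counts in at least 1 *white*-labelled pool, while *AttA*, *AttB*, *CecA1* and *Drs* were counted 28 to 571 times. Summed over the 10 genes, the level was 7.48 and 31.7 CPM in the *white*-labelled pools and 16.5 and 21.1 CPM in the *orb2*-labelled pools. The 2 *white*-labelled pools thus lay on either side of both *orb2*-labelled pools. The summed levels of the fat body markers ran in another order, highest in *white*-labelled pool 1 and lowest in *white*-labelled pool 2. This order was not that of every marker. *Fbp1* alone was at 2809 CPM in *white*-labelled pool 1, while *Lsp1beta* was highest in *orb2*-labelled pool 2, at 1875 CPM. Per kilobase of exon, the mean over the 4 libraries was highest for *CecA1* (20.1 ± 21.5 CPM per kb, SD, n = 4) and *Drs* (10.4 ± 5.96 CPM per kb, SD, n = 4). *AttA* and *AttB* followed at 3.41 ± 2.07 and 3.37 ± 2.55 CPM per kb (SD, n = 4), and the other 6 ran from 1.80 CPM per kb for *Mtk* to 0.262 CPM per kb for *DptA*. *Drs* lay above *AttA*, the next in this order, in all 4 libraries (6.82 to 19.3 against 0.789 to 5.40 CPM per kb), while all other neighbours overlapped in their ranges.

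**Figure D1:**
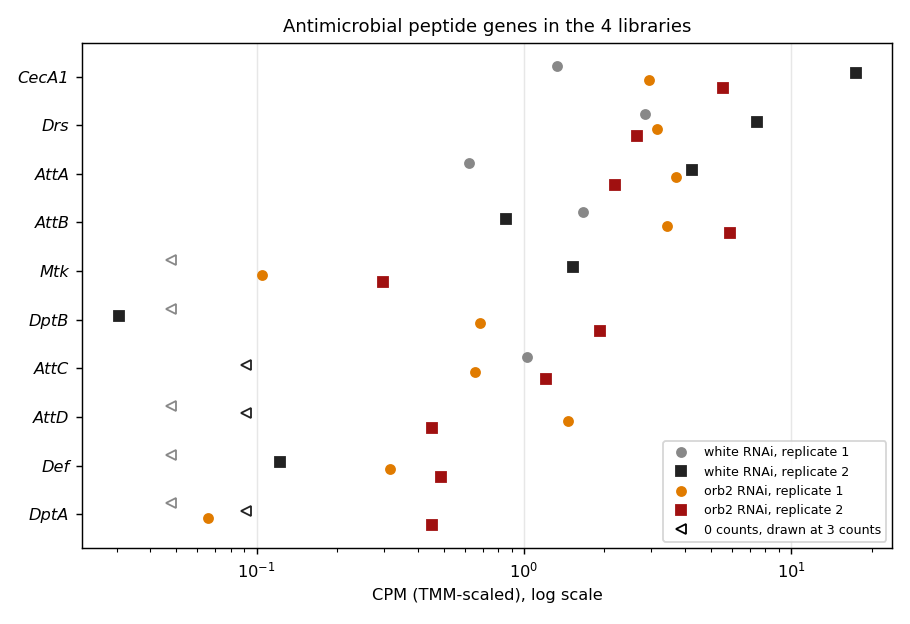
Level of the 10 antimicrobial peptide genes in CPM on a log axis, with 1 point per library (grey and black, *white* RNAi; orange and red, *orb2* RNAi), ordered by mean level per kilobase; open triangles are libraries with 0 counts, drawn at the level of 3 counts. *CecA1* spans 1.33 to 17.4 CPM, and the 8 triangles all belong to *white*-labelled pools.

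The attacins, glycine-rich peptides active against Gram-negative bacteria, were the largest family of the set. *AttA* (FBgn0012042) and *AttB* (FBgn0041581) are a tandem pair on chromosome 2R, from 14747362 to 14748215 and from 14749223 to 14750165 on the plus strand in the BDGP6.54 annotation, 1007 bases apart. *AttB* was counted 104 and 28 times in the *white*-labelled pools (1.66 and 0.854 CPM) and 261 and 338 times in the *orb2*-labelled pools (3.43 and 5.91 CPM). Both *orb2*-labelled pools were above both *white*-labelled pools, with means of 4.67 ± 1.76 CPM (SD, n = 2) against 1.26 ± 0.572 CPM (SD, n = 2). The fitted log2 fold change was 1.88 (standard error 0.701), with an unadjusted p of 0.0469 and a Benjamini-Hochberg adjusted p over all features of 0.9998 (edgeR, quasi-likelihood). *AttA* did not share this pattern. It was at 0.623 and 4.27 CPM in the *white*-labelled pools and at 3.69 and 2.19 CPM in the *orb2*-labelled pools, so the groups overlapped (log2 fold change 0.27, standard error 1.05). The direction of *AttA* turned with the library left out, from 2.24 without *white*-labelled pool 2 to -0.52 without *white*-labelled pool 1, and it was -0.15 without *orb2*-labelled pool 1.

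*AttC* (FBgn0041579, chromosome 2R, 13393705 to 13394667, plus strand) was counted 64 and 0 times in the *white*-labelled pools, and 50 and 69 times in the *orb2*-labelled pools (log2 fold change 0.84, standard error 2.01). The library at 0 was the shallowest of the 4, where 3 counts correspond to 0.0915 CPM, while the other 3 were at 0.657 to 1.21 CPM. *AttC* shares 5.89% of its exon bases with *CG4744* on the opposite strand, which was at 0.0350 to 0.793 CPM and was highest where *AttC* was at 0. *AttD* (FBgn0038530, chromosome 3R, 17625268 to 17626086, plus strand), the attacin that is thought to lack a signal for secretion, was counted 0 times in both *white*-labelled pools and 111 and 26 times in the *orb2*-labelled pools. Against a floor of 3 counts per library, its mean in the *orb2*-labelled pools (1.46 and 0.455 CPM) was 13.7-fold higher, resting more on pool 1. Its unadjusted p was 0.0168 and its adjusted p 0.9998 in edgeR's test, and DESeq2 without shrinkage gave an adjusted p of 0.0788.

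The diptericins are induced almost wholly through Imd and are common readouts of that pathway. *DptA* (FBgn0004240, 18865765 to 18866260) and *DptB* (FBgn0034407, 18867391 to 18867895) lie 1130 bases apart on the plus strand of chromosome 2R. *DptB* was counted 0 and 1 times in the *white*-labelled pools and 52 and 110 times in the *orb2*-labelled pools, or 0.683 and 1.92 CPM. The ratio of the summed counts, scaled for depth, was 115.8, with an exact 95% interval of 20.5 to 4603 that covers counting error only. edgeR's test gave *DptB* an unadjusted p of 0.0212 and an adjusted p of 0.9998, and the lowest adjusted p over its alternatives on all 4 libraries was 0.0662, from DESeq2 without shrinkage. *DptA* was counted 0 times in both *white*-labelled pools and 5 and 26 times in the *orb2*-labelled pools. The mean of the *orb2*-labelled pools was 3.73-fold the same floor, which rests on pool 2. In *orb2*-labelled pool 1, *DptA* was at 0.0657 CPM, below the level of 3 counts in *white*-labelled pool 2 (0.0915 CPM), so no difference was resolved there. *DptA* was the 1 gene of the 10 that failed the filter on low counts, so it was not tested. Both diptericins were therefore counted in both *orb2*-labelled pools and at 0 or 1 count in both *white*-labelled pools. *DptB* shares 10.7% of its exon bases with *CG43109* on the opposite strand, which was counted 0 times in every library except *orb2*-labelled pool 2, where it had 10 counts.

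*Def* (FBgn0010385, chromosome 2R, 10054178 to 10054576, minus strand) encodes a defensin directed mainly at Gram-positive bacteria. It was counted 0 and 4 times in the *white*-labelled pools and 24 and 28 times in the *orb2*-labelled pools. The groups did not overlap. Their means were 0.0610 ± 0.0863 CPM and 0.402 ± 0.123 CPM (SD, n = 2 each), and the fitted log2 fold change was 2.77 with a standard error of 2.04. *Mtk* (FBgn0014865, chromosome 2R, 15408846 to 15409113, plus strand), whose peptide acts on fungi and Gram-positive bacteria, had another order of libraries. It was counted 0 and 50 times in the *white*-labelled pools and 8 and 17 times in the *orb2*-labelled pools, with a log2 fold change of -1.91 and a standard error of 2.43. Both genes lie inside a larger gene, *Mtk* inside *Stacl* on the same strand and *Def* inside *magu* on the opposite strand. *Stacl* was at 37.0 CPM in the library where *Mtk* was highest and at 65.9 to 88.4 CPM in the others, and *magu* ran from 45.2 to 54.7 CPM.

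The most abundant 2 members per length, *CecA1* and *Drs*, were highest in *white*-labelled pool 2. *CecA1* (FBgn0000276, chromosome 3R, 30210874 to 30211273, plus strand) encodes a helical peptide that disrupts bacterial membranes. It was counted 83 and 571 times in the *white*-labelled pools (1.33 and 17.4 CPM) and 224 and 318 times in the *orb2*-labelled pools (2.94 and 5.56 CPM). Both *orb2*-labelled pools fell between the 2 *white*-labelled pools, and the log2 fold change of -1.14 had a standard error of 1.21. *Drs* (FBgn0283461, chromosome 3L, 3369556 to 3369942, plus strand) encodes an antifungal peptide. It was at 2.85 and 7.47 CPM in the *white*-labelled pools and at 3.14 and 2.64 CPM in the *orb2*-labelled pools, a log2 fold change of -0.83 with a standard error of 0.662. Without *white*-labelled pool 2 the log2 fold change was 1.68 for *CecA1* and 0.022 for *Drs*. *Drs* was counted 151 to 245 times in every library and was the steadiest gene of the set, with a fitted biological coefficient of variation of 0.583, against a median of 0.986 for the 9 tested genes and 0.374 for all tested features.

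Of the 10 genes, edgeR's test called 0 in either direction (a call needed an adjusted p below 0.05 and a log2 fold change beyond 0.5 either way), and among all 13082 tested features the share called was 0% in each direction. DESeq2 also called 0 of the 10. Without its prior it called 0.671% of its features higher and 0.298% lower in the *orb2*-labelled pools, and with its prior 0.255% and 0.0425%. edgeR with the replicate number as a block called 0 of the 10, against 0.474% of features higher and 0.0841% lower. With 1 library left out edgeR again called 0 of the 10, against 0% higher and 0.00706% lower without *white*-labelled pool 1, 0% and 0% without *white*-labelled pool 2, 0.653% and 0.323% without *orb2*-labelled pool 1, and 0.198% and 0.36% without *orb2*-labelled pool 2. At an unadjusted p under 0.05 in edgeR's test, 3 of the 9 tested genes (*AttB*, *AttD* and *DptB*) were higher and 0 were lower, against 3.68% and 0.894% of all tested features. *AttD*, *DptB* and *Def* had 0 to 4 counts in the *white*-labelled pools and passed the filter only through the *orb2*-labelled pools. These genes could therefore only come out higher, which shapes this tally, the next count and the medians below. *DptA*, at 0 counts in both *white*-labelled pools, could not lie below them either. Both *orb2*-labelled pools were above both *white*-labelled pools for 5 of the 10 genes, *AttB*, *AttD*, *DptA*, *DptB* and *Def*, and below both for 0. Among all tested features these shares were 18.5% and 11.7%. They cover features of every level, and the shares among low features alone were not computed. For *DptA*, *orb2*-labelled pool 1 had only 5 counts, in CPM below the level of 3 counts in *white*-labelled pool 2. The median fitted log2 fold change of the 9 tested genes was 0.84, beside 0.02 for all tested features. That of all 10, with *AttD* and *DptA* set against the floor of 3 counts and *DptB* at its ratio, was 1.37.

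**Figure D2:**
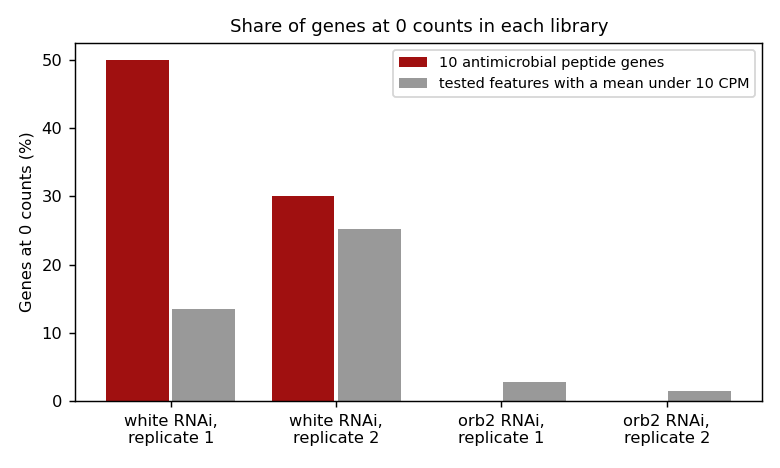
Percent of genes with 0 counts in each library, for the 10 antimicrobial peptide genes (red bars) and for the 5521 tested features with a mean under 10 CPM (grey bars). Among the 10 genes, 5 and 3 were at 0 in the *white*-labelled pools and none in the *orb2*-labelled pools, and the grey bars fall from 13.5% and 25.3% to 2.88% and 1.54%.

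Among the 10 genes, values of 0 counts were found only in the *white*-labelled pools. Of the 20 values of the 10 genes in those libraries 8 were 0, and of the 20 in the *orb2*-labelled pools 0 were 0. The same imbalance ran through low features of the whole table. Of the 5521 tested features with a mean under 10 CPM, 13.5% and 25.3% were at 0 in the *white*-labelled pools, and 2.88% and 1.54% in the *orb2*-labelled pools. The number of features with any count was 13331 and 12291 in the first pair and 15352 and 15832 in the second, although *white*-labelled pool 1 held more counts (61.43 M) than *orb2*-labelled pool 2 (55.83 M). The part of this in the differences of *AttD*, *DptA*, *DptB* and *Def* was not tested. Being at 0 in a *white*-labelled pool and above 0 in both *orb2*-labelled pools held for 6 of the 10 genes. It held for 5 of the 9 tested genes, against 12.9% of all tested features. That share covers features of every level, while all 10 genes had a mean under 10 CPM, and the share among low features alone was not computed.

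Which genes lay outside the other group depended on the *white*-labelled pool used. With *white*-labelled pool 1 left out, both *orb2*-labelled pools were above the remaining one for 6 genes (the 5 above and *AttC*) and below it for 4 (*AttA*, *CecA1*, *Mtk* and *Drs*), where all tested features gave 47.8% and 37.3%. With *white*-labelled pool 2 left out, both were above the remaining one for 8 genes (all but *AttC* and *Drs*) and below it for 0, where all tested features gave 41.2% and 35.1%. Of all 4 libraries, *white*-labelled pool 1 was the lowest, ties included, for 7 of the 10 genes and the highest for 0. *White*-labelled pool 2 was highest for 4 (*AttA*, *CecA1*, *Mtk* and *Drs*), *orb2*-labelled pool 2 for 5 and *orb2*-labelled pool 1 for 1 (*AttD*). Among all tested features the highest library was *white*-labelled pool 1 for 27.2%, *white*-labelled pool 2 for 33.6%, *orb2*-labelled pool 1 for 18.1% and *orb2*-labelled pool 2 for 21.2%.

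**Figure D3:**
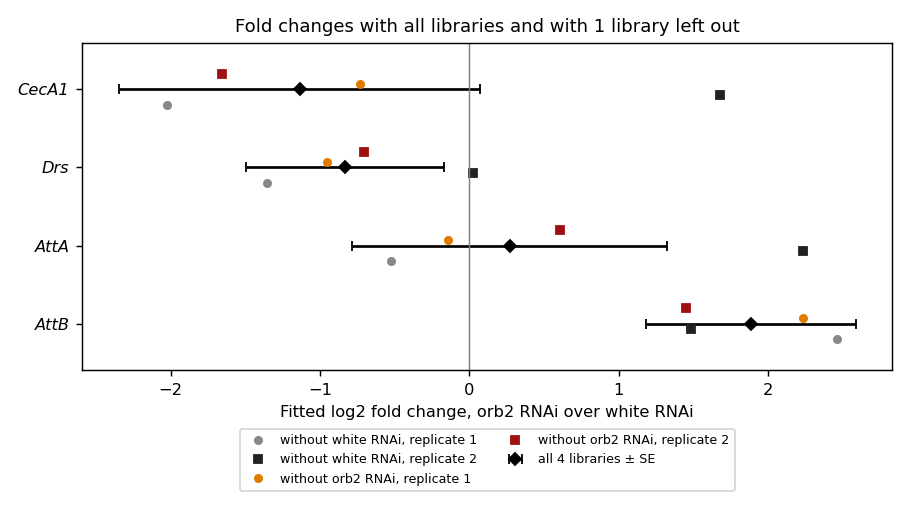
Fitted log2 fold change, *orb2* RNAi over *white* RNAi, of the 4 antimicrobial peptide genes that had counts in every library, with all 4 libraries (black diamonds, bars are ± 1 standard error) and with each library left out (colored points). *AttB* stays above 0 throughout, from 1.45 to 2.46, while *AttA*, *CecA1* and *Drs* each have points on both sides of 0.

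The split of counts between neighbouring gene copies differed between 2 tandem pairs. *AttA* and *AttB* encode nearly identical proteins, as do *CecA1* and its neighbour *CecA2*, which lies 882 bases away, so how reads shared by both copies were counted bears on each gene's value. *AttA* took 27.3% of the summed *AttA* and *AttB* counts in *white*-labelled pool 1 (95% Wilson interval 20.6% to 35.1%), 83.3% in *white*-labelled pool 2 (77.0% to 88.2%), 51.8% in *orb2*-labelled pool 1 (47.6% to 56.0%) and 27.0% in *orb2*-labelled pool 2 (23.2% to 31.2%). The intervals of *white*-labelled pool 2 and *orb2*-labelled pool 1 overlapped neither each other nor those of the other 2 libraries. They also stayed apart with the counts halved before the interval was computed, a check chosen after seeing the data, at 73.9% to 89.8% and 45.7% to 57.5%. *CecA1* took 48.8%, 54.3%, 46.1% and 44.7% of the *CecA1* and *CecA2* counts in the same order of libraries, a far narrower range.

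**Figure D4:**
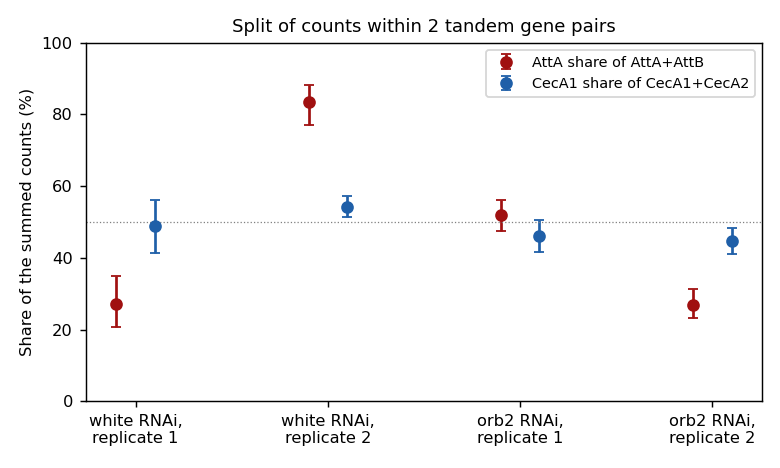
Share of the summed counts of a tandem gene pair taken by the first gene in each library, in percent, with 95% Wilson intervals that cover counting error only (red, *AttA* of *AttA* and *AttB*; blue, *CecA1* of *CecA1* and *CecA2*). The *AttA* share runs from 27.0% to 83.3%, and the *CecA1* share from 44.7% to 54.3%.

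Summing the copies sets aside how reads were split between them. It does not set aside reads that match both copies and were left uncounted or counted for each. *AttA* and *AttB* together were at 2.29 and 5.12 CPM in the *white*-labelled pools and at 7.12 and 8.10 CPM in the *orb2*-labelled pools, so the groups did not overlap. The log2 fold change was 1.04 with a standard error of 0.563 and an adjusted p of 0.9998 from edgeR's test, a sum chosen after seeing the data. *CecA1* and *CecA2* together were at 2.72 and 32.1 CPM and at 6.38 and 12.4 CPM in the same order, with both *orb2*-labelled pools again between the 2 *white*-labelled pools. *AttB* also abuts *Rpn6*, a proteasome subunit gene on the opposite strand, which was at 243.4 to 327.1 CPM and highest in the library where *AttB* was lowest.

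Other peptide genes of the same kind were read from a list of 30, of which 29 had a row and 14 passed the filter. edgeR's test called 0 of these. Of the 14, 9 had a fitted log2 fold change above 0, against 6865 of all 13082 tested features. The median of the 14 was 0.85, beside 0.02 for all tested features. The remaining cecropins resembled *CecA1* in being lowest in *white*-labelled pool 1. *CecA2* was at 1.39 and 14.6 CPM in the *white*-labelled pools and at 3.44 and 6.87 CPM in the *orb2*-labelled pools. *CecC* was at 0.160 and 9.27 CPM and at 2.99 and 13.2 CPM, and so was highest in *orb2*-labelled pool 2. *Drsl5*, a relative of *Drs*, was the most abundant gene of the list and went the other way from the diptericins, at 29.3 and 64.8 CPM in the *white*-labelled pools and at 11.5 and 2.43 CPM in the *orb2*-labelled pools. edgeR gave it a log2 fold change of -2.76 (standard error 0.875) and an adjusted p of 0.9998, and DESeq2 without shrinkage gave an adjusted p of 0.0300. *BomS3*, a short secreted Toll-induced peptide named here after its values were seen, was counted 0 and 1 times in the *white*-labelled pools and 72 and 61 times in the *orb2*-labelled pools. It passed the filter only through the *orb2*-labelled pools, so it could only come out higher.

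The Imd signalling genes upstream of the peptides were at 5.09 CPM or above in every library. Of 16 genes of the Imd pathway, all 16 were tested and 0 were called by edgeR's test in either direction, with a median log2 fold change of 0.07. Both *orb2*-labelled pools were above both *white*-labelled pools for 5 of the 16 and below both for 0, against 18.5% and 11.7% of all tested features. At an unadjusted p under 0.05 in edgeR's test, 3.68% of all tested features were higher and 0.894% lower. Of these 16 genes 0 were lower and 1 was higher, *Rel*, which encodes Relish. It was at 52.5 and 69.1 CPM in the *white*-labelled pools and at 93.6 and 104.5 CPM in the *orb2*-labelled pools, a log2 fold change of 0.70 (standard error 0.233, unadjusted p = 0.0322, adjusted p = 0.9998 from edgeR's test). Both *orb2*-labelled pools were above both *white*-labelled pools for *Rel*, and its log2 fold change ran from 0.53 to 0.91 as each library was left out. The receptor gene *PGRP-LC* was at 12.1 and 15.98 CPM and at 16.2 and 12.6 CPM, and the adaptor gene *imd* at 24.7 and 21.4 CPM and at 22.9 and 22.8 CPM, in the same order, so both overlapped between groups. The most abundant genes of the list were *eff*, a ubiquitin-conjugating enzyme, and *akirin*, a nuclear cofactor of Relish, with log2 fold changes of -0.27 and -0.01.

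*pirk* and *PGRP-LB* encode negative regulators of Imd that the pathway itself induces. *pirk* was at 0.320 and 5.28 CPM in the *white*-labelled pools and at 4.18 and 4.34 CPM in the *orb2*-labelled pools. *PGRP-LB*, an enzyme that degrades peptidoglycan, was at 2.37 and 15.7 CPM and at 9.62 and 7.80 CPM. Both were lowest in *white*-labelled pool 1 and highest in *white*-labelled pool 2, as were *AttA*, *CecA1* and *Mtk*. *PGRP-LF*, a decoy receptor, did not overlap between groups, at 0.607 and 0.244 CPM against 1.63 and 1.45 CPM (log2 fold change 1.84, standard error 0.981). Of the 11 listed regulators 9 were tested and 0 called, and the most abundant, *casp* and *CYLD*, had log2 fold changes of -0.15 and -0.34. Of the 9, both *orb2*-labelled pools were above both *white*-labelled pools for 2 and below both for 2 (*casp* and *CYLD*). Among all tested features the shares were 18.5% and 11.7%.

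**Figure D5:**
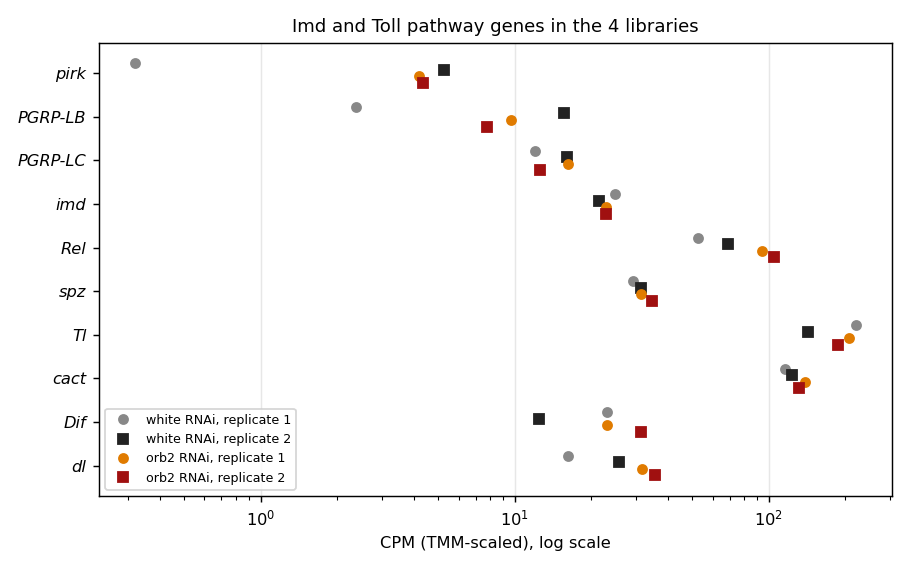
Level of 10 genes of the Imd and Toll pathways in CPM on a log axis, with 1 point per library (grey and black, *white* RNAi; orange and red, *orb2* RNAi). *Rel* runs from 52.5 to 104.5 CPM with both *orb2* RNAi points to the right, and *pirk* and *PGRP-LB* each have *white*-labelled pool 1 far to the left, at 0.320 and 2.37 CPM.

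All 19 genes of the Toll list were tested and 0 were called by edgeR's test, with a median log2 fold change of 0.33. Both *orb2*-labelled pools were above both *white*-labelled pools for 11 of the 19 and below both for 1, against 18.5% and 11.7% of all tested features. The NF-kappaB gene *dl* was at 16.3 and 25.6 CPM in the *white*-labelled pools and at 31.6 and 35.6 CPM in the *orb2*-labelled pools (log2 fold change 0.69, standard error 0.308). *Dif* was at 22.99 and 12.4 CPM and at 23.02 and 31.3 CPM, where pool 1 of each label was nearly level. The receptor gene *Tl* was at 221.0 and 142.2 CPM and at 206.9 and 186.6 CPM, and its ligand gene *spz* at 29.1 and 31.3 CPM and at 31.5 and 34.6 CPM. The inhibitor gene *cact* had a log2 fold change of 0.17. At an unadjusted p under 0.05 in edgeR's test, 2 genes of this list were higher and 1 lower, against 3.68% and 0.894% of all tested features. These 3 genes, singled out after their values were seen, act outside the cell in sensing microbes. *grass*, a serine protease, had a log2 fold change of 1.45 and *modSP*, the protease upstream of it, one of 0.78. *PGRP-SD*, a peptidoglycan-binding protein, had one of -3.15 (standard error 1.03). It was low, at 1.90 and 2.26 CPM in the *white*-labelled pools, and at 0.118 and 0.350 CPM (9 and 20 counts) in the *orb2*-labelled pools. Each of the 3 genes had an adjusted p of 0.9998 in edgeR's test.

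The 5 tested features whose profile over the 4 libraries lay closest to the median profile of the 9 tested peptide genes were *CG11249*, *Ssk*, *slf*, the transposon insertion *invader4{}4112* and *Damm*, at Euclidean distances of 0.254 to 0.529 on the centred log2 CPM scale. *Ssk* encodes a membrane protein of gut septate junctions, and *Damm* a caspase. In all 5, *white*-labelled pool 1 was lowest. The peptide genes themselves lay farther from their own median, from 0.700 for *Def* to 4.59 for *AttC*, so no single profile describes the set. These distances rest on 4 libraries and are a description.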

How the data were processed

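The files deposited for the 4 libraries hold raw counts of each annotated feature, not normalized. Reads were trimmed (Trim Galore), aligned to BDGP6.32 (HISAT2) and counted (featureCounts) by the authors. Settings for strand, read pairs and reads with several alignments are not given in the sources used here, so counts of gene copies and of genes with overlapping exons are uncertain. Among features with 1 to 50 counts, 61.0% to 68.0% of counts were even, against 49.7% to 50.9% above 1000 counts. Reads are not independent molecules, and intervals cover counting error only and may be too narrow.

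The members and the gene lists were chosen with earlier results of these data known. Genes were matched by symbol, and 162 of 163 listed symbols had a row. BDGP6.54 (Ensembl release 115), newer than the annotation the authors counted on, gave positions and exon lengths.

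The analysis ran in R 4.3.3, using edgeR 4.0.16 (TMM, filterByExpr, quasi-likelihood test, all 4 libraries, no replicate block) and DESeq2 1.42.0 as an alternative. Benjamini-Hochberg adjustment ran over 13082 features. The standard error is the log2 fold change over the square root of F. Named genes were the 10 members, *orb2*, 11 core pathway genes, the 2 most abundant genes of each list, peptide genes of at least 5 CPM, called genes and the 5 nearest profiles. Neighbouring and overlapping genes were named for their position, and *Yp1* after its values were seen. With 2 libraries per group, an exact permutation test cannot give a two-sided p below 0.333, so none was run. Alternatives were 2 DESeq2 fits, 3 normalizations, 2 filters, a replicate block, other thresholds, each library's trend on exon length taken out (lowess, span 0.3) and each library left out. The method was tested on simulated data, with a pass required only at a spread set low, not at the spread fitted to these libraries. No reference sequences were used here.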

Additional observations from a re-analysis of the deposited data

How the results depend on the processing

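No alternative called any of the 10 peptide genes at an adjusted p under 0.05, and 3 passed at an unadjusted p under 0.05. The lowest adjusted p among them was 0.0662. Of 114 values over the alternatives, 7 changed sign. With each library left out in turn, the log2 fold change ran from -0.52 to 2.24 for *AttA*, -0.14 to 8.69 for *AttC*, -2.02 to 1.68 for *CecA1*, -2.91 to 6.72 for *Mtk* and -1.36 to 0.022 for *Drs*. Fits against libraries at 0 depend on edgeR's prior count. Of the other immune genes (0 called in the main comparison), 6 passed at an unadjusted p under 0.05 in edgeR's test. Among all tested features, 3.68% passed as higher and 0.894% as lower. Of the other immune genes, 1 was called by DESeq2 without shrinkage (*Drsl5*) and 1 with the replicate block (*TotA*).

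The numbers 1 and 2 are not stated to pair the samples. Deviations of same-numbered libraries had a correlation across features of 0.183. The replicate block called 62 features higher and 11 lower, gave *Mtk* a log2 fold change of 0.50, *PGRP-LB* 0.50 and *CecA2* 0.10, and called 0 of the 10 peptide genes. DESeq2 called 90 higher and 40 lower without shrinkage and 30 and 5 with its prior, against 0 and 0. With 1 library left out, 5 to 8 of the 10 peptide genes had the *orb2* RNAi side above the *white* RNAi side, against 5 with all 4 libraries. The share of all tested features also rose, from 18.5% to 47.8% and 41.2% without *white*-labelled pools 1 and 2. Without *orb2*-labelled pools 1 and 2, this share was 29.7% and 28.1%.

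Small changes crossed 0 for pathway genes. With library size only, *imd* was at 0.033, *PGRP-LB* at 0.040 and *akirin* at 0.046. With the upper quartile, *PGRP-LC* was at -0.021. With no filter, *akirin* was at 0.0028. With the length trend taken out, *imd* was at 0.0076, *PGRP-LC* at -0.11, *PGRP-LB* at 0.039 and *Tl* at -0.030. Over the 4 leave-one-out fits, *imd* ran from -0.11 to 0.11, *PGRP-LC* from -0.14 to 0.25, *PGRP-LB* from -0.83 to 1.88, *pirk* from -0.30 to 3.73, *Tl* from -0.17 to 0.48, *CecA2* from -1.49 to 1.89, *CecC* from -0.64 to 5.64, *eff* from -0.53 to 0.080, *akirin* from -0.21 to 0.19 and *TotA* from -5.18 to 0.023. The cause was not tested for any of these.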

Other observations

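*TotA*, a gene of the JAK-STAT stress response list named after its values were seen, encodes a humoral factor induced by infection and heat. It was at 57.5 and 2.68 CPM in *white*-labelled pools 1 and 2, and at 4.56 and 0.822 CPM in *orb2*-labelled pools 1 and 2. It was thus highest in the library where the summed level of the 10 antimicrobial peptide genes was lowest, at 7.48 CPM. The summed fat body markers were highest in that library too, at 5249 CPM, of which *Fbp1* alone held 2809 CPM. *Lsp1beta* was highest in *orb2*-labelled pool 2 instead, and no relation between these levels was tested. Of the 14 genes of this list, 2 had no counts in any library. The factor gene *Stat92E* and its feedback inhibitor gene *Socs36E* were the most abundant, with log2 fold changes of 0.31 (standard error 0.224) and 0.46 (standard error 0.218), neither called by edgeR's quasi-likelihood test.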
